A study of Mus musculus with 6 samples.

Results

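The HSP70 family outside mitochondria was examined in maps of N6-methyladenosine (m6A), a methyl mark on RNA, from male mouse germ cells. The members were 10 genes listed by name: Hspa1a, Hspa1b, Hspa1l, Hspa2, Hspa4, Hspa4l, Hspa5, Hspa8, Hspa13 and Hspa14. Of these, 8 had at least 1 m6A peak in each of the authors' 2 deposited tables. They held 19 of the 24127 peaks of the ClpP table and 20 of the 23681 peaks of the ClpX table. Hspa8 and Hspa14 are not analysed here, since no row under those names was used. The study mapped m6A by m6A-seq, in which an antibody captures methylated RNA fragments for an immunoprecipitated (IP) library that is set against an input library of the same RNA. All 6 libraries came from primary cells labelled spermatocytes at postnatal day 35: an IP and an input library of WT animals, of ClpP cKO animals and of ClpX cKO animals. ClpP is a protease of the mitochondrial matrix and ClpX is the unfoldase that feeds it, and each was deleted in germ cells with Stra8-Cre, a recombinase driven from the Stra8 promoter. The labels do not give how many animals a library pooled.

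HSP70 proteins hold unfolded stretches of other proteins in a cycle driven by ATP. J-domain proteins start the cycle, and nucleotide exchange factors end it. Hspa1a and Hspa1b are the stress-inducible cytosolic forms, Hspa1l and Hspa2 are the forms known from the testis, and Hspa5 (BiP) serves the endoplasmic reticulum. Hspa4 and Hspa4l belong to the HSP110 branch, which works as exchange factors, and Hspa13 is a microsomal form. Male germ cells are known to need Hspa2 to complete meiosis, and m6A is known for its place in the stability and translation of mRNA.

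The sequences shown lie at the 5′ ends of Hspa1a, Hspa1b and Hspa2, at stretches where a peak and the RefSeq promoter table (GRCm38.p6) meet. They are printed to show the DRACH consensus at which m6A is written: any base but C, then A or G, then AC, then any base but G. The capitals mark matches on the sense strand of each gene. The 5′ peak of Hspa4l also meets the promoter table, over 9 bases that held no match, and is not printed. The Hspa1a stretch is covered by a peak of the ClpX table only.
Hspa1a, chr17:34972119-34972148, minus strand, bases 9 to 38 from the first transcribed base: cTGACAgctactcaGAACCaaatctggttc
Hspa1b, chr17:34959201-34959230, minus strand, bases 9 to 38 from the first transcribed base: cTGACAgctactcagaatcaaatctggttc
Hspa2, chr12:76404251-76404279, plus strand, within the first block of its first peak and before the start that the promoter table uses: tagatatcagttGGACCaccggctggtca
Hspa1a and Hspa1b are near-identical copies. They shared 296 of 300 bases of the window around the start (98.7%) and 49 of the first 50 transcribed bases (98.0%). The 1 difference among those 50 bases, C26T from Hspa1a to Hspa1b counted from the first transcribed base, removes a DRACH match, so that Hspa1a held 3 matches there and Hspa1b 2. Among the 32851 entries of the promoter table, 5.02% held at least 3 matches in their first 50 transcribed bases, 19.8% at least 2 and 54.4% at least 1. On the other strand each copy held 1 match, as did at least that many in 55.2% of entries. The first block of the Hspa2 peak, 114 bases long, held 1 match on the sense strand and 2 on the other. This block lies inside the RefSeq span of Hspa2 but upstream of the start used in the promoter table. At the same positions relative to that start, 85.2% of entries held at least 1 match on the sense strand and 85.4% on the other. A match describes the letters only and does not place a methylated base.

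Each peak carries a fold enrichment of IP over input, given once for all libraries of its table, and a log2 fold change of that enrichment between genotypes. A negative log2 fold change is read here as less m6A enrichment in the knockout, a direction that rests on the tables naming the knockout before WT. Because enrichment is set against input, the change is meant to follow the methylated share of a transcript and not its level, and the level of the HSP70 transcripts was not analysed here. Peaks with an adjusted p below 0.05 in the authors' deposited tables were counted as called. With 1 library per genotype and kind there is no replicate check, and each p compares libraries, not genotypes. The errors below were recovered from the deposited p and log2 fold change under a normal approximation and cover counting error only. No deposited p of a difference exceeded 0.778, so a recovered error is bound to be small where the log2 fold change is near 0. Calls that such peaks gained only after the recentring described below are uncertain for this reason.

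HSP70 peaks were called lower more often than higher in the ClpP knockout and higher more often than lower in the ClpX knockout, as all peaks of the tables were. For ClpP, 6 of 19 peaks in 4 genes (Hspa1b, Hspa1l, Hspa2 and Hspa5) were called lower in the authors' deposited table, beside 12.8% of all peaks. There, 2 peaks in 2 genes (Hspa4 and Hspa4l) were called higher, beside 6.74% of all peaks. For ClpX, the authors' deposited table had 4 of 20 peaks in 2 genes (Hspa2 and Hspa4) called higher, beside 15.1% of all peaks, and 1 peak, in Hspa5, was called lower, beside 5.0%. Once each table was recentred on its own median over all peaks, the ClpX calls stood at 2 higher and 4 lower. The ClpP calls then stood at 4 higher and 6 lower, with Hspa4 peak 2 and Hspa4l peak 3 added. The shares of all peaks called after recentring are not given, so these recentred counts have no background beside them. The median log2 fold change of the HSP70 peaks was 0.11 in the ClpP table, with a range from -3.88 to 1.99, beside a median of -0.034 over all peaks. In the ClpX table it was 0.26, with a range from -1.55 to 1.78, beside 0.24 over all peaks. The fold enrichment of HSP70 peaks ran from 1.41 to 67.4 (median 5.6) in the authors' deposited table for ClpP and from 1.77 to 79.5 (median 9.4) in that for ClpX.

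**Figure D1:**
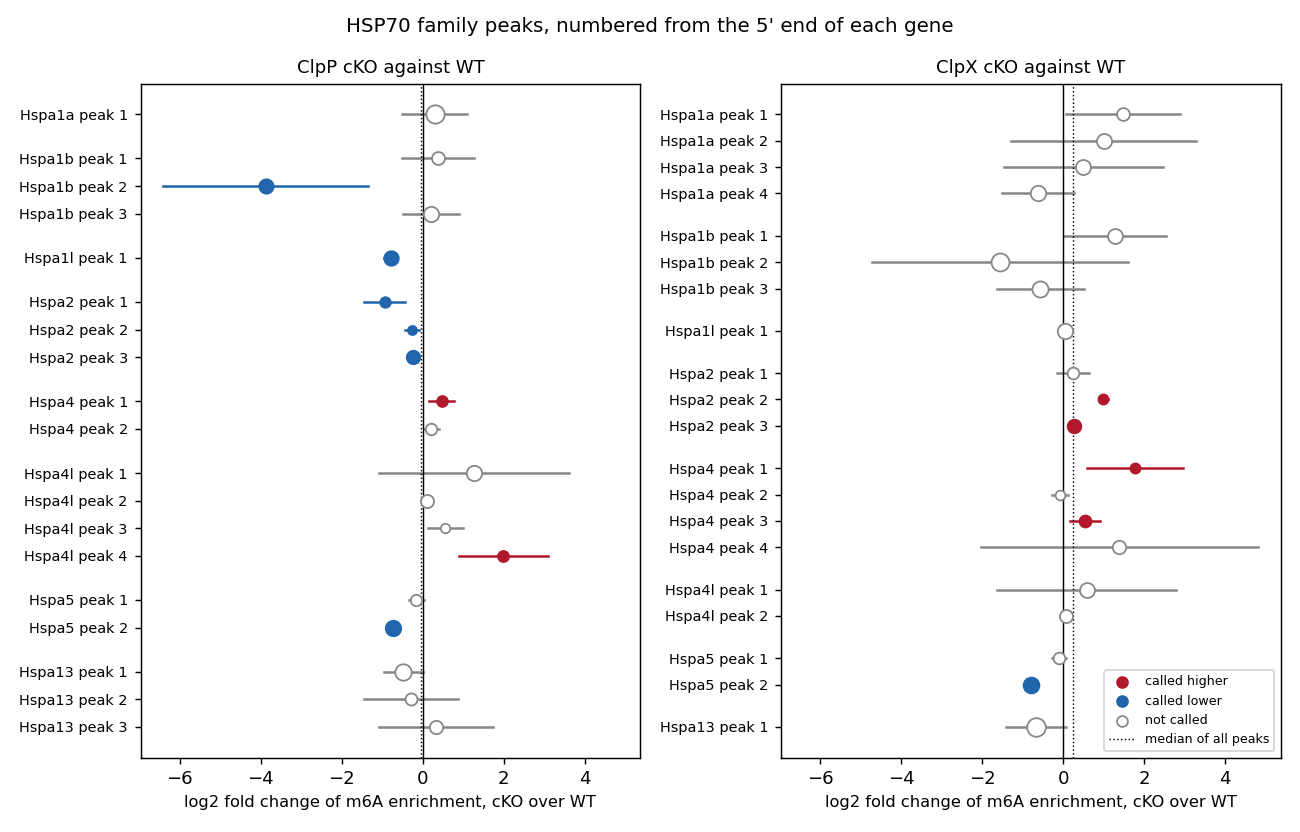
Log2 fold change of m6A enrichment (knockout over WT, x axis) for each HSP70 peak of the authors' deposited tables, 19 for ClpP at the left and 20 for ClpX at the right. Points grow with the fold enrichment, lines are 95% intervals from the recovered counting error, filled points are called peaks and the dotted line is the median of all peaks. Hspa5 peak 2 lies left of 0 in both panels, while Hspa2 peaks 2 and 3 lie left of 0 for ClpP and right of 0 for ClpX.

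The endoplasmic reticulum chaperone Hspa5 had less m6A enrichment at the end of its transcript in both knockouts. Its second peak, chr2:34775568-34776468 on the plus strand, had the same coordinates in both tables and spanned 901 bases that ended 61 bases before the RefSeq 3′ end of the gene. For ClpP this peak fell by 0.74 on the log2 scale in the authors' deposited table (recovered error 0.0399, adjusted p = 1.3e-73, fold enrichment 15.4), a knockout to WT ratio of 0.6. For ClpX it fell by 0.79 in the authors' deposited table (recovered error 0.0608, adjusted p = 1.6e-36, fold enrichment 18.3), a ratio of 0.577. The 95% intervals, -0.82 to -0.66 and -0.91 to -0.67, overlap. Among the log2 fold changes of all peaks, the values stood at the 20.5 percentile for ClpP and the 19.2 percentile for ClpX. With each table recentred on its median over all peaks, the values were -0.70 and -1.03. Both comparisons share the WT libraries, so the values are not independent of each other. The first peak of Hspa5, chr2:34774011-34774341, lies in the middle of the gene and was called in neither table. Its log2 fold changes were -0.16 (adjusted p = 0.28) and -0.093 (adjusted p = 0.51) at fold enrichments of 2.91 and 3.29 in the authors' deposited tables. With the authors' ClpX table recentred, this peak was called lower (-0.33, adjusted p = 0.0016).

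Hspa2, the HSP70 of meiotic cells, was lower at all 3 of its peaks in the ClpP knockout and higher at 2 of 3 in the ClpX knockout, of which 1 kept its call after recentring. Peaks are numbered from the 5′ end. Its most enriched peak, peak 3, covered chr12:76405810-76406493 for ClpP and chr12:76405720-76406493 for ClpX and ended 445 bases before the 3′ end of the gene. For ClpP, peak 3 fell by 0.25 in the authors' deposited table (recovered error 0.0272, adjusted p = 5e-18, fold enrichment 6.37), a ratio of 0.841. For ClpX, peak 3 rose by 0.27 in the authors' deposited table (recovered error 0.038, adjusted p = 2.5e-11, fold enrichment 6.81), a ratio of 1.21. That rise is near the median of all peaks of the authors' ClpX table and stands at the 51.2 percentile of its log2 fold changes. With the authors' table recentred it was 0.034 and no longer called (adjusted p = 0.54).

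Peak 2 of Hspa2 was weakly enriched in both tables and differed in extent. For ClpP it was 120 bases, chr12:76405097-76405216, and fell by 0.26 in the authors' deposited table (recovered error 0.0878, adjusted p = 0.018, fold enrichment 1.41). For ClpX it was 625 bases, chr12:76404651-76405275, and contained the ClpP peak whole. There it rose by 1.0 in the authors' deposited table (recovered error 0.0552, adjusted p = 5e-70, fold enrichment 1.91), a ratio of 2.0. Recentred on the median of the authors' ClpX table, it stood at 0.76 (adjusted p = 4.7e-41). The deposited rise of 1.0 was at the 74.3 percentile of the log2 fold changes of that table. With all ClpX peaks cut into 5 bins by enrichment, this peak falls in the least enriched bin (up to 3.79). The median log2 fold change of that bin was 0.81, and 33.2% of its peaks were called higher. Peak 1, near the 5′ end and the source of the sequence printed above, started at chr12:76404176 in both tables. It fell by 0.94 in the authors' deposited table for ClpP (recovered error 0.256, adjusted p = 0.0024, fold enrichment 2.23). Its ClpX value in the authors' deposited table was 0.25 (recovered error 0.196, adjusted p = 0.42, fold enrichment 3.33), which was not called. So the ClpX value lay above the ClpP value at each of the 3 sites, by 1.19, 1.26 and 0.52 from peak 1 to peak 3. With both tables recentred the gaps were 0.91, 0.99 and 0.25. Those differences were not tested.

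Hspa1l, the testis form encoded beside Hspa1a and Hspa1b, was lower in the ClpP knockout. Its only peak covers the last part of the gene, chr17:34977320-34979255 for ClpP (1936 bases) and chr17:34977290-34979285 for ClpX (1996 bases). For ClpP it fell by 0.79 in the authors' deposited table (recovered error 0.0857, adjusted p = 2e-18, fold enrichment 10), a ratio of 0.577. Its ClpX value in the authors' deposited table was 0.051, which was not called (recovered error 0.0587, adjusted p = 0.57, fold enrichment 15.2). With the authors' ClpX table recentred, the value was -0.19 and was called lower (adjusted p = 0.0079). That call is uncertain, since the deposited value is near 0, where the recovered error is bound to be small. The peak shares bases with a peak of the predicted gene Gm10501 on the other strand. That peak had log2 fold changes of -0.51 (adjusted p = 2.3e-05) for ClpP and -0.041 for ClpX in the authors' deposited tables. Whether the counting used strand is not stated in the labels, so reads of Hspa1l and Gm10501 cannot be told apart.

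The inducible copies Hspa1a and Hspa1b had peaks with wide errors at fold enrichments from 4.91 to 67.4, and only 1 of their 11 peaks over both tables was called. Reads from near-identical copies can be assigned to either, so the values of each copy are uncertain. For Hspa1a the authors' deposited table for ClpP listed 1 peak at the 3′ end, chr17:34969340-34970119, with a fold enrichment of 67.4 and a log2 fold change of 0.30 (recovered error 0.41, adjusted p = 0.6). For ClpX, 4 Hspa1a peaks were listed. From the 5′ to the 3′ end their log2 fold changes in the authors' deposited table were 1.48, 1.0, 0.50 and -0.62, with fold enrichments from 4.91 to 15.2 and adjusted p from 0.14 to 0.67. The values above 0 stood toward the 5′ end and the value below 0 at the 3′ end, but none was called. The peaks at both ends of Hspa1a share bases with a peak of the predicted gene Gm20481 on the other strand.

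Hspa1b had 3 peaks in each table. Its middle peak was the lowest of the family: chr17:34958075-34958344 fell by 3.88 in the authors' deposited table for ClpP, a ratio of 0.0679. The recovered error of 1.29 gives a 95% interval from -6.41 to -1.35, and the adjusted p was 0.018 at a fold enrichment of 9.19. The overlapping ClpX peak, chr17:34958016-34958344, was -1.55 in the authors' deposited table and not called (recovered error 1.61, adjusted p = 0.54). The 5′ peak of Hspa1b, which covers the bases printed above, had a log2 fold change in the authors' deposited tables of 0.37 for ClpP (adjusted p = 0.58) and 1.29 for ClpX (adjusted p = 0.16). The 3′ peak, the most enriched of the gene in the authors' ClpP table at 14.3, was 0.20 for ClpP (adjusted p = 0.64) and -0.56 for ClpX (adjusted p = 0.52). The gene thus reads as lower by its smallest p and as 0.20 by its most enriched peak in the ClpP table.

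**Figure D2:**
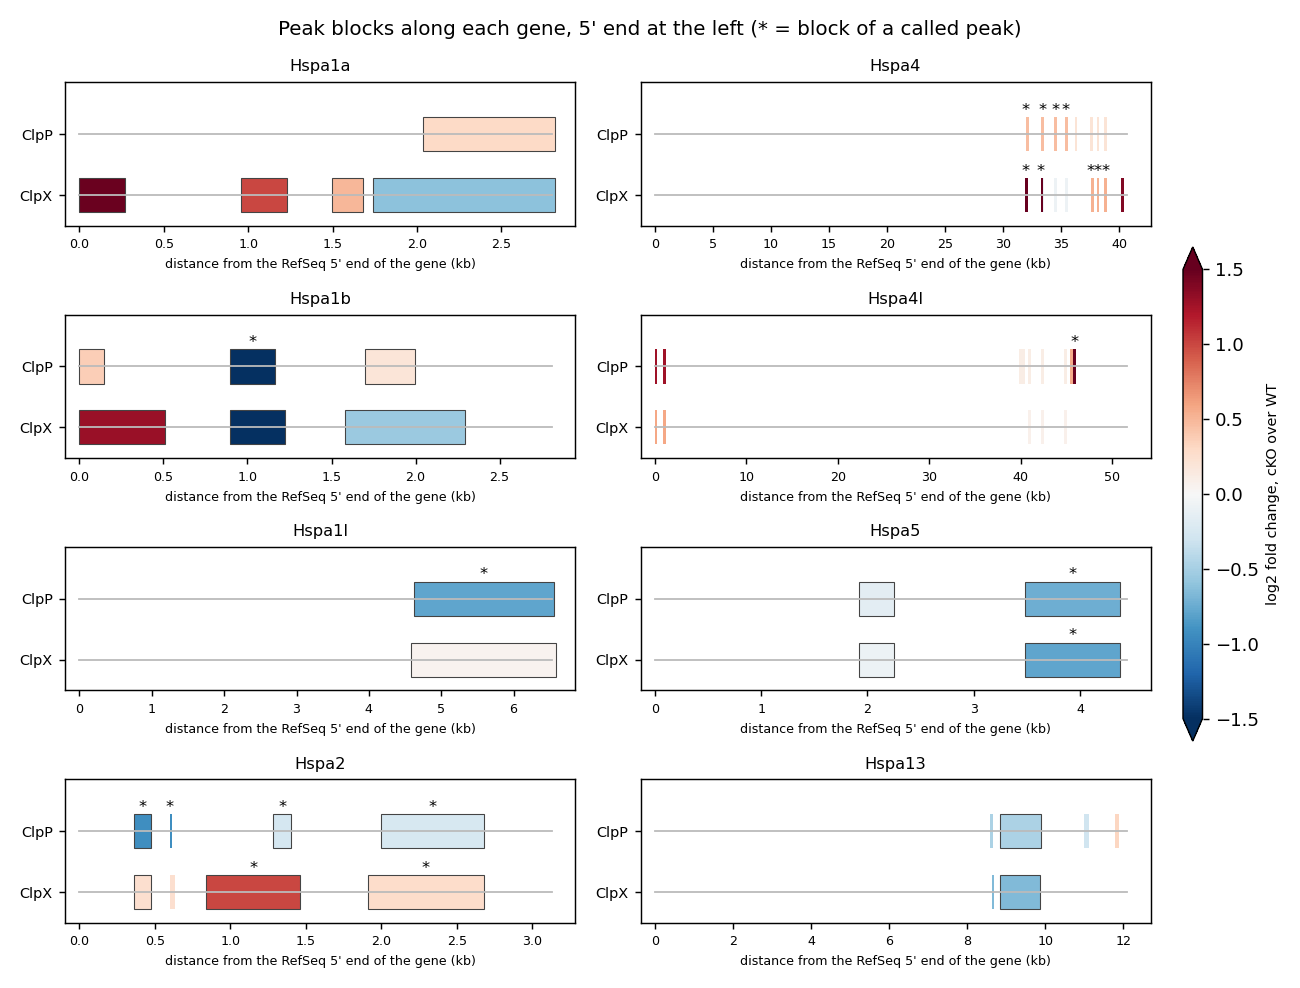
Position of the peak blocks along each of the 8 HSP70 genes, in kb from the RefSeq 5′ end, with the ClpP table above and the ClpX table below in each panel. Colour gives the deposited log2 fold change (limited to 1.5 in each direction), a star marks a block of a called peak and blocks are drawn at least wide enough to see. In Hspa5 the starred block lies at the 3′ end in both tables, and in Hspa2 the starred blocks are blue for ClpP and red for ClpX.

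The HSP110-type members Hspa4 and Hspa4l held all of the calls toward more enrichment in the ClpP knockout. Peaks of Hspa4, on the minus strand of chromosome 11, lay in several separate blocks toward the 3′ end of its 40666-base span. For ClpP, Hspa4 peak 1, chr11:53264980-53268524 in 4 blocks, rose by 0.46 in the authors' deposited table (recovered error 0.155, adjusted p = 0.018, fold enrichment 2.45). Peak 2 was 0.21 and not called (the authors' adjusted p = 0.11). For ClpX, Hspa4 had 4 peaks in the authors' deposited table, of which 2 were called higher. Peak 1, chr11:53267216-53268584, rose by 1.78 over 121 bases (recovered error 0.607, the authors' adjusted p = 0.02, fold enrichment 1.93). Peak 3, chr11:53261517-53262927, rose by 0.53 (recovered error 0.191, the authors' adjusted p = 0.029, fold enrichment 3.56). Its call was lost with the authors' table recentred (adjusted p = 0.26). Peak 2 of that table was -0.079 (the authors' adjusted p = 0.59), and after recentring it was called lower (-0.32, adjusted p = 0.0084). That call is uncertain too, since the deposited value is near 0, where the recovered error is bound to be small. Peak 4 was 1.39 with a recovered error of 1.74 (the authors' adjusted p = 0.59). The Hspa4 peak numbers do not match between the tables. By shared bases, ClpP peak 1 (0.46, called higher) was paired with ClpX peak 2 (-0.079, not called). ClpP peak 2 (0.21, not called) was paired with ClpX peak 3 (0.53, called higher). ClpX peak 1 also overlaps ClpP peak 1, but by fewer bases.

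Hspa4l, a relative of Hspa4 that is abundant in the testis, had 4 peaks for ClpP and 2 for ClpX. Its short peak 4, chr3:40790267-40790447, rose by 1.99 in the authors' deposited table for ClpP (recovered error 0.559, adjusted p = 0.0033, fold enrichment 2.58), a ratio of 3.97. Peak 3, chr3:40789908-40790088, was 0.56 (the authors' adjusted p = 0.056) at a fold enrichment of 1.58. The better covered peak 2, with 5 blocks and a fold enrichment of 5.6, was 0.11 for ClpP (recovered error 0.0593, the authors' adjusted p = 0.2). Its ClpX counterpart was 0.075 (recovered error 0.0804, adjusted p = 0.55) in the authors' deposited table. The 5′ peak, chr3:40744495-40745390, was 1.27 for ClpP (the authors' adjusted p = 0.49) and 0.59 for ClpX (adjusted p = 0.66). No Hspa4l peak was called in the ClpX table.

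Hspa13, the microsomal member, carried the most enriched HSP70 peak of the ClpX table and was called nowhere. This peak, chr16:75757421-75758653, had a fold enrichment of 79.5, at the 99.6 percentile of all peaks, and stood at -0.66 in the authors' deposited table (recovered error 0.377, adjusted p = 0.23). The ClpP counterpart, chr16:75757391-75758683, had a fold enrichment of 25.0 and stood at -0.48 (recovered error 0.246, the authors' adjusted p = 0.17). Both values lie below 0, as do those of the strongly enriched 3′ peak of Hspa5, but neither Hspa13 value passed the threshold. The other 2 Hspa13 peaks of the ClpP table were -0.30 (the authors' adjusted p = 0.67) and 0.32 (adjusted p = 0.69).

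The recovered errors of the HSP70 peaks that were not called had a median of 0.352 (0.0593 to 1.19) for ClpP and 0.552 (0.0587 to 1.74) for ClpX, so small changes at most of them were not detectable. In all, 15 peaks of 8 genes could be paired between the tables by shared bases on the same strand. The pairs called in both tables were Hspa5 peak 2 and Hspa2 peaks 2 and 3.

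Relatives outside the list gave further values. Hspa9, the mitochondrial HSP70 and so a neighbour of ClpP and ClpX in the matrix, rose by 1.04 in the authors' deposited table for ClpP (adjusted p = 0.0002) and by 2.57 in that for ClpX (adjusted p = 6.8e-07). Those peaks were weakly enriched, at 1.62 and 1.49. The other Hspa9 peak was 0.39 and 0.31 and was called in neither. Of the distant relative Hspa12a, 2 of 4 peaks in the authors' ClpX table were called lower, at -2.22 (adjusted p = 0.0021) and -1.60 (adjusted p = 0.018), and none in the ClpP table. Hspa12b was called in neither (2.09 for ClpP, 1.45 and 0.85 for ClpX).

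**Figure D3:**
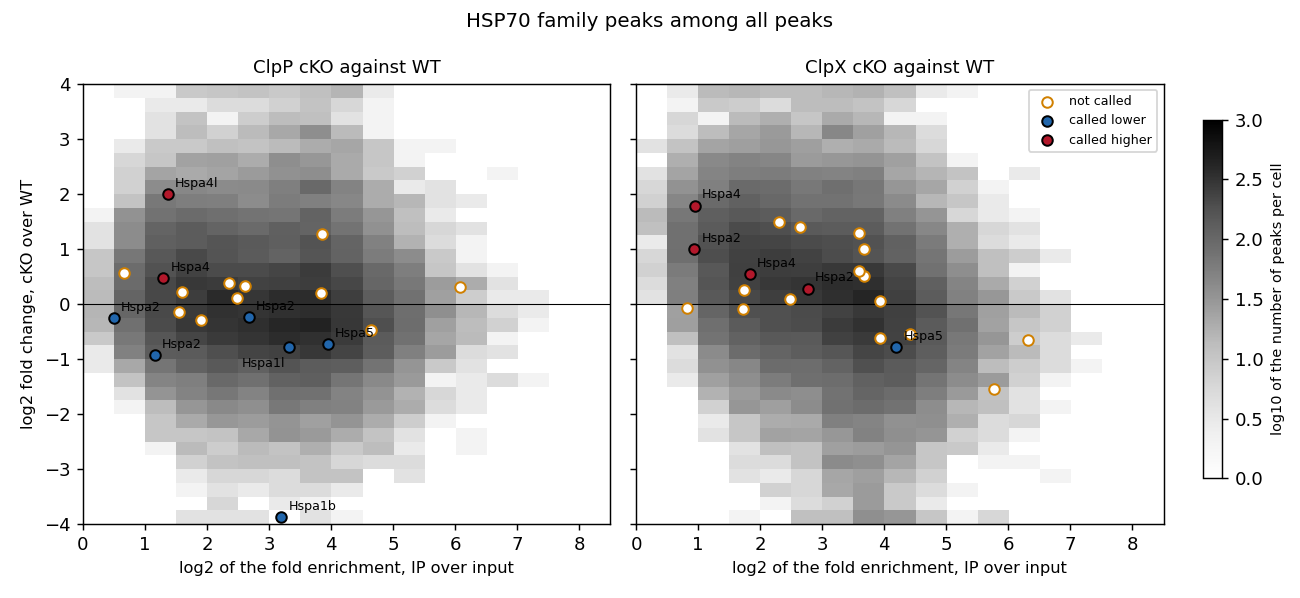
HSP70 peaks (circles) on all peaks of each deposited table (grey cells, log10 of the number of peaks), with the log2 of the fold enrichment on the x axis and the log2 fold change on the y axis. Values of other peaks beyond 4 in either direction are held in the outermost cells. The called HSP70 peaks toward higher values lie at low enrichment, and Hspa5 lies at higher enrichment below 0 in both panels.

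The size of the fold enrichment moved with the direction of change over all peaks of the authors' ClpX table, cut into 5 equal bins by enrichment. The median log2 fold change was 0.81 in the least enriched bin (fold enrichment up to 3.79) and -0.27 in the most enriched bin (17.1 to 220), with 33.2% and 3.51% of peaks called higher. In the ClpP table the medians were 0.17 and -0.17. The Hspa2 and Hspa4 peaks called higher for ClpX have enrichments of 1.91 to 6.81 and the Hspa5 peak called lower has 18.3. The part of enrichment in these values was not tested.

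Partners of HSP70 were followed in 3 lists, with each gene taken at its peak with the smallest p. Beside them, 9.5% of all genes were called higher and 19.3% lower in the ClpP table, and 21.7% higher and 7.58% lower in the ClpX table. Among the cytosolic co-chaperones, HSP90 genes and heat shock factors, 24 of 25 had a peak in each table. For ClpP, the authors' deposited table called 5 of them higher and 5 lower, and the list's median log2 fold change was -0.10 beside -0.16 over all genes. For ClpX it called 11 higher and 3 lower, and the list's median was 0.64 beside 0.36 over all genes. Recentring left 6 higher and 5 lower for ClpP and 11 higher and 6 lower for ClpX. The shares of all genes above are without recentring, and those after it are not given.

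Bag5, an exchange factor of HSP70, fell in both at a peak found in both deposited tables. The fall was 0.82 (the authors' adjusted p = 2e-82) for ClpP and 0.36 (adjusted p = 1.5e-05) for ClpX. Its other shared peak was -0.35 and 0.84, called in neither. The J-domain gene Dnajb4 also fell in both, by 0.74 (the authors' adjusted p = 5.9e-06) and 0.55 (adjusted p = 0.048). Dnajb1, the J-domain partner of the inducible forms, was called at both of its peaks in both tables, lower for ClpP and higher for ClpX. Its first peak was -0.94 for ClpP and 1.30 for ClpX, and its second -0.73 and 0.62, in the authors' deposited tables. Hsf5, a heat shock factor of the testis, had the same pattern at its weakly enriched first peak (-0.75 and 1.03, fold enrichment 1.81 and 2.6). It rose in both at another weakly enriched peak further on (0.67 and 1.35). Its most enriched shared peak (11.6 and 13.8) was -0.37, called lower, for ClpP and 0.078, not called, for ClpX. Ahsa1, an activator of HSP90, rose by 0.99 and 1.83 at a shared site. Its more enriched shared peak (fold enrichment 16.8 and 14.5) was -0.24 and 0.73, called in neither table. St13, which binds HSP70 in its ADP state, rose by 0.64 and 1.09, but at different sites of the gene. At no St13 site shared by the authors' deposited tables was the peak called in both (0.70 and 1.26 at the first, 1.06 and 0.22 at the other).

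Several other cytosolic partners were called in 1 table only, which does not show that the knockouts differ. Bag3 fell by 0.66 in the authors' deposited table for ClpP. Dnajc7 rose there by 2.47, Stub1, an HSP70-linked ubiquitin ligase, by 1.8 and Hsp90aa1 by 0.66. For ClpX, Bag3 was 0.037 and Hsp90aa1 0.55, neither of them called, though Bag3 was called lower after recentring (-0.20). The recovered error of Bag3 was 0.0562 there, beside 0.145 for ClpP at the same site, so that call is uncertain. The Dnajc7 and Stub1 peaks with the smallest p for ClpX lay at other sites (0.40 and 0.93, not called), and at the site of Dnajc7 shared by the authors' deposited tables the values were 0.059 and 0.40. Stip1, which bridges HSP70 and HSP90, rose by 1.24, Dnaja2 by 1.25, Bag1 by 0.89 and Hsp90ab1 by 0.52 in the authors' deposited table for ClpX. Their ClpP values were 0.17, 0.18, -0.051 and -0.15.

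The list of endoplasmic reticulum folding and unfolded protein response genes surrounds Hspa5. For ClpP, 33 of 35 had a peak in the authors' deposited table, of which 3 were called higher and 9 lower, and their median was -0.31. For ClpX, 34 had a peak, of which 17 were called higher and 3 lower, and their median was 0.58. Recentring left 5 higher and 8 lower for ClpP and 12 higher and 5 lower for ClpX, again without a recentred share of all genes beside them. Hspa5 itself fell in both. Sil1, its exchange factor, fell by 0.40 for ClpP (the authors' adjusted p = 0.0028) and rose by 0.61 for ClpX (adjusted p = 0.029) at a peak present in both tables. The lectin chaperone Canx (-0.31 and 0.80) and the disulfide isomerase P4hb (-0.36 and 0.47) had the same order. After recentring, the ClpX calls of Sil1, P4hb and Clgn and the ClpP call of Canx were lost. Clgn, the calnexin of the testis, rose in both at a shared site (0.30 and 0.78). So did Syvn1, a ligase of protein degradation at the reticulum (1.38 and 2.29), and Hsp90b1, the HSP90 of the reticulum (0.45 and 1.17). At the other shared sites of Clgn (-0.41 and -0.78) and Syvn1 (0.112 and -0.0525), the peak was called in neither table. Hsp90b1 was 0.275, not called, for ClpP and 0.815, called higher, for ClpX at another shared site. At a further shared site Hsp90b1 was -0.0205 and -0.263, called in neither. Sdf2 fell at its most enriched peak in both (-1.04 and -1.14) and rose at a weaker one (1.52 and 1.64).

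For several genes of the list the peak with the smallest p lay at different sites in the authors' deposited tables, so the sites found in both are given here. Calr was called lower for ClpP and higher for ClpX at one shared site (-0.32 and 0.22), a ClpX value that was -0.022 and not called after recentring. At another it was -0.81 for ClpP and -0.083, not called, for ClpX. Pdia4 was -0.53, called, and -0.49, not called, at one site and -0.90, not called, and 1.24, called, at the other. Sec63, a partner of Hspa5 at the translocon, fell by 1.34 for ClpP at one site (-0.26 for ClpX, not called) and rose by 1.52 at another (0.36 for ClpX, not called).

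Dnajb9 and Sel1l, which act with Hspa5 and in the removal of misfolded proteins, fell by 0.74 and 0.82 for ClpP in the authors' deposited table. Dnajb9 was -0.35 for ClpX (the authors' adjusted p = 0.05) and was called lower there after recentring (-0.59). Sel1l was 0.29 for ClpX and not called. Hyou1, the HSP110-type partner of Hspa5, rose by 1.36 for ClpX at a site where its ClpP value was -0.26 and not called, in the authors' deposited tables. Manf likewise rose by 0.97 for ClpX at a site with -0.11, not called, for ClpP. Atf4, a factor of the stress response, rose by 1.65 for ClpX and was 0.58, not called, for ClpP. After recentring, Atf4 was called higher for ClpP too (0.61). Sec61a1, a subunit of the translocon, rose by 1.13 for ClpX.

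Of 10 genes known to act with Hspa2 in meiosis or spermatids, 9 had a peak for ClpP, with 2 called higher and 1 lower, and 8 for ClpX, with 5 called higher and 0 lower. The list medians were 0.25 and 0.73. Shcbp1l, a spindle protein that binds HSPA2, fell at its first peak by 0.82 for ClpP (adjusted p = 0.019) in the authors' deposited table. For ClpX the authors' value there was a rise of 1.25 (adjusted p = 5.1e-05). At its other shared site, with fold enrichments of 1.72 and 1.44, Shcbp1l was 0.32, called higher, for ClpP and -0.35, not called, for ClpX. Tnp1, a transition protein that HSPA2 binds in spermatids, rose in both (0.29 and 0.62). Sycp2, of the synaptonemal complex with which HSPA2 associates, rose by 2.54 for ClpP at a peak that was not paired with one of the ClpX table. At a site of Sycp2 shared by the authors' deposited tables the values were 0.54 and -0.36, neither of them called. At its other shared site they were 1.22 and 0.89, also not called. Tnp2 (0.94), Bag6 (0.93), which keeps HSPA2 stable, and Sycp1 (0.84) rose for ClpX, with ClpP values at the same sites of 0.21, -0.15 and 0.35, none of them called. After recentring, the ClpX calls of Tnp1 and Sycp1 were lost, and Tnp2 was called higher for ClpP (0.24).

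**Figure D4:**
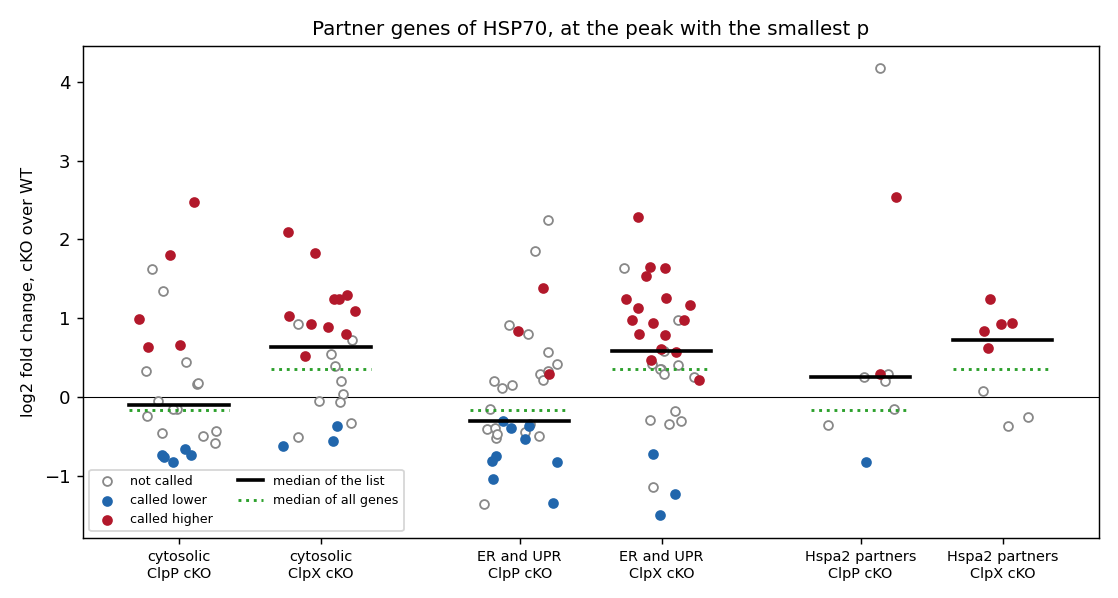
Log2 fold change (knockout over WT, y axis) of each measured gene of the 3 partner lists at its peak with the smallest p, for ClpP and ClpX. Filled points are called genes, points are spread sideways for sight only, black bars are list medians and green dotted bars the median of all genes. The ER and UPR median is -0.31 for ClpP and 0.58 for ClpX.

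Marker genes of the testis bear on which cells the RNA came from, though a peak table shows methylated sites and not expression. Of 8 spermatocyte markers, 8 had a peak for ClpP and 6 for ClpX, with medians of 0.16 and -0.26 and 1 called higher and 2 lower in each. Of 7 spermatid markers, 6 and 7 had one, with 2 called higher and 1 lower for ClpP and 6 higher and 0 lower for ClpX, and medians of 0.25 and 0.76. The shares over all genes are the 9.5% higher and 19.3% lower (ClpP) and 21.7% and 7.58% (ClpX) given above. Spermatogonial markers (5 of 5) and Sertoli markers (5 of 6) had peaks in both tables, and those of Leydig cells, vessels and macrophages had between 2 and 4 of 4 or 5. Medians of the spermatogonial, Sertoli, Leydig, vessel and macrophage lists lay above 0 in both tables, between 0.096 and 3.5, beside medians over all genes of -0.16 for ClpP and 0.36 for ClpX. Their part in the HSP70 values was not tested, and a change of cell makeup and a change of m6A within a cell cannot be told apart here. Of the deleted genes, Clpx had 1 peak, not called in either table (0.38 and 0.55), and Clpp 1 peak in the ClpX table (1.7, the authors' adjusted p = 0.069). The deposited m6A peaks do not check the deletions.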

How the data were processed

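m6A-seq gave an IP and an input library of each genotype, 6 libraries in all. RNA was taken with an RNeasy mini plus kit and 1.3 ug of total RNA entered libraries made with a SMARTER kit, per the labels' protocols. Coordinates are those of GRCm38 (mm10), as the submitters' processing notes name it. Aligner, peak caller, normalization and depth: not given in the sources used here. The authors' 2 tables list for each peak, per the file headers, a p-value, scores that are log10 of p-values, a fold enrichment (a linear ratio of IP over input), and a log2 fold change between genotypes. Unequal scaling of IP libraries would move every peak of a table alike, which is why medians were also subtracted. The deposited adjusted p-values lay within 0.05 (log10) of a Benjamini-Hochberg adjustment over the table for 99.38% (ClpP) and 99.29% (ClpX) of peaks.

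Scripts used Python 3.11.15, pandas 2.3.3 and scipy 1.17.1. Each peak's error was recovered as the absolute log2 fold change over the normal quantile of its deposited p. In the recentred alternative the table's median (-0.034 for ClpP and 0.24 for ClpX) was subtracted and p-values were recomputed and adjusted by Benjamini-Hochberg over all peaks. This step was tested on simulated data in which every peak was shifted alike. That setting does not cover a shift that varies with enrichment, such as the ClpX medians show across the bins. Its p-values were made from the same normal approximation, so the errors were recovered there by construction. It therefore does not check the errors recovered from the deposited p-values, of which none exceeded 0.778. Peaks were paired between tables as mutual best matches sharing at least 1 base on 1 strand. All listed members were named with every peak. Of each partner list, genes called in both comparisons and up to 4 further called genes per comparison, by adjusted p, were named. Hspa9 and Hspa12a were set as relatives, and Clpp and Clpx are given as the deleted genes. The members, lists and thresholds were chosen with earlier results of these data known. Sequences are those of RefSeq (GRCm38.p6). Alternatives changed the threshold, the centring, the minimum enrichment, shared bases and the peak that stands for a gene.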

Additional observations from a re-analysis of the deposited data

Results flagged for a closer look

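At 2 sites of Hspa2, the peaks of both deposited tables share bases, both were called, and the directions were opposite. The same order was found among the partner pairs called in both tables. It held at 3 of 7 in the cytosolic list, 4 of 9 in the endoplasmic reticulum list and 1 of 2 among the Hspa2 partners. The reverse order was found at 0 pairs of each list. The share over all paired peaks is not given, so the order cannot be called particular to Hspa2. At peak 2 the log2 fold change was -0.26 for ClpP and 1.0 for ClpX, so that the ClpX value was higher by 1.26. The ClpX peak there spans 625 bases and the ClpP peak 120. The ClpX value stood at the 74.3 percentile of its table, in the least enriched bin, whose median was 0.81. At peak 3 the values were -0.25 and 0.27, a difference of 0.52, and the ClpX call was lost once the authors' table was recentred on its median (adjusted p = 0.54). With both tables recentred the differences were 0.99 and 0.25. The comparisons share the WT libraries, each knockout has 1 IP and 1 input library, and the differences between the knockouts were not tested.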

How the results depend on the processing

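The count of HSP70 peaks called lower for ClpP stayed within 1.5 times its value of 6 under each alternative run. With an adjusted p under 0.01, the peaks called higher went from 2 to 1 for ClpP and from 4 to 2 for ClpX. With the median of all peaks subtracted they went to 4 for ClpP and 2 for ClpX, and those called lower for ClpX from 1 to 4. With a fold enrichment of at least 2, those called higher for ClpX went to 2. The shares of all peaks called under each of the alternatives are not given, so these counts have no background beside them. An adjusted p under 0.1 and leaving out peaks that share bases with another gene left all 4 counts within 1.5 times, and pairing at 50% of the shorter peak kept 15 pairs. Taken at its most enriched peak, Hspa1b turned from -3.88 to 0.20 for ClpP. Hspa1a (1.48 to -0.62) and Hspa1b (1.29 to -1.55) also changed sign for ClpX, where neither was called. That choice moved 5 of the 16 gene values beyond their recovered error interval, the mean of all peaks moved 7, and subtracting the median moved 4. The subtraction also moved the partner counts, chosen after seeing the data. For ClpX they went to 11 higher and 6 lower in the cytosolic list and 12 and 5 in the endoplasmic reticulum list. Among the Hspa2 partners they were 3 and 0. The shares over all peaks and all genes after the subtraction are not given. No paired analysis was possible because each group has 1 library. No alternative can stand for replicates, and the weakly enriched peaks of Hspa2, Hspa4 and Hspa4l have IP signal little above input.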
